A study of Mus musculus with 14 samples.

Results

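In mouse brainstem gliomas labelled with a gain-of-function allele of Ezh2, 34 genes stood above the control tumors in the authors' list of called genes without appearing in their list for loss of Ezh2. These 34 are the subject here. They were found by a rule with 2 steps over the deposited tables. A gene had to have a higher mean over the 4 EZH2 GOF tumors than over the 3 EZH2 WT tumors, and its Ensembl identifier had to be missing from the table of the EZH2 LOF experiment. That experiment has another background, since both its groups carry p53f/f and received RCAS-CRE, so the second step of the rule sets tumors with deleted p53 beside tumors with a p53 knockdown. Of 294 genes in the EZH2 GOF table, 67 were higher, and 33 of these are also in the EZH2 LOF table. The other 227 genes were lower. The members were thus chosen by their normalized counts in these same 7 tumors, so direction and ratio of group means are given as a description. The tables list called genes alone (FDR under 0.05 in the authors' test), so a gene missing from the EZH2 LOF table is known only to be unlisted there, and its level in EZH2 LOF tumors was not analysed here.

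The EZH2 GOF tumors (n = 4) are pontine gliomas of C57BL/6 mice labelled Nestin-Tv-a;Ezh2Y641F/+ that received RCAS-CRE. The EZH2 WT tumors (n = 3) carry the label Nestin-Tv-a;Ezh2wt and received RCAS-Y, a control virus. In the study's methods, both groups also received RCAS-PDGF-B and RCAS-shp53, so a growth factor and a knockdown of p53 are common to all 7 tumors, and the controls are described there as the same Ezh2 Y641F line without Cre. Exposure to Cre and expression of the mutant allele cannot be told apart, since only EZH2 GOF tumors received Cre. The Nestin promoter drives the viral receptor Tv-a, which limits infection to Nestin-positive progenitors and their progeny. The study read the mutant base in the RNA of replicate 3 alone. It gives no clear reason, but says that RNA reads may miss a mutation at low expression and low allele fraction. Neither age nor sex of the animals is stated for these samples. Stranded libraries of total RNA depleted of ribosomal RNA were read as single ends of 50 bp. A normalized count is the number of reads of a gene divided by a size factor of the library.

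EZH2 is the catalytic subunit of Polycomb repressive complex 2 (PRC2), which methylates lysine 27 of histone H3. The trimethylated mark accompanies silent genes, and in mammals PRC2 is found mostly at promoters rich in CpG dinucleotides. Exchange of the tyrosine at the Y641F site in the SET domain favours the last methylation step, so the allele is known for raising trimethylation. The study reports more of the trimethylated mark in its EZH2 GOF tumors, by staining and immunoblot. In neural progenitors PRC2 is known for holding genes of later developmental stages silent. Neither Ezh2 nor any other of 24 listed PRC2 and PRC1 genes is in the EZH2 GOF table, so the transcript of the targeted gene was not analysed here and does not check the labels.

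The promoters of the 34 genes ranged widely in CpG content. The windows of 4 genes are printed as examples from toward the 2 ends of this range, and they contain no annotated exon. Tspyl3, Vstm5 and Wnk3 hold fewer CpG at the poor end, 2 each, also without an exon, and are not printed. Each is the 250 bases before the gene start, from RefSeq on GRCm38.p6 (the mm10 build of the deposited tables), 5′ to 3′ along the strand of the gene, with each CpG dinucleotide in capitals. Traf3 lies at chr12:111166120-111166369, plus strand, Slc22a23 at chr13:34345219-34345468, minus strand, Fam19a1 at chr6:96112904-96113153, plus strand and Lrrtm4 at chr6:80018627-80018876, plus strand.
Traf3: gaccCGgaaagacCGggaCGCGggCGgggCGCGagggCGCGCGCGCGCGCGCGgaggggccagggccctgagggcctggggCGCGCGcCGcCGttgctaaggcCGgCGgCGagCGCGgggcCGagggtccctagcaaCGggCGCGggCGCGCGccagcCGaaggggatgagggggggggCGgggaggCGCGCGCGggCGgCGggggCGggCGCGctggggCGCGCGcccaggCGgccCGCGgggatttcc
Slc22a23: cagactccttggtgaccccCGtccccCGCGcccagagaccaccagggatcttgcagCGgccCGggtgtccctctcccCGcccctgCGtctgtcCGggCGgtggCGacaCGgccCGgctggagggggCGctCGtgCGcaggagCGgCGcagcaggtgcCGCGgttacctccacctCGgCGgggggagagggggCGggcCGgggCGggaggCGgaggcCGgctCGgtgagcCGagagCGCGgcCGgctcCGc
Fam19a1: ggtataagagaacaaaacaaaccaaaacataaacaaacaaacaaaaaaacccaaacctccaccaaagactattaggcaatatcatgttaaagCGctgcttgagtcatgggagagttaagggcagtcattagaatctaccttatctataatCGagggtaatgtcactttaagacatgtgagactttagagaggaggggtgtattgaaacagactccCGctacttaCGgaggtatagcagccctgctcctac
Lrrtm4: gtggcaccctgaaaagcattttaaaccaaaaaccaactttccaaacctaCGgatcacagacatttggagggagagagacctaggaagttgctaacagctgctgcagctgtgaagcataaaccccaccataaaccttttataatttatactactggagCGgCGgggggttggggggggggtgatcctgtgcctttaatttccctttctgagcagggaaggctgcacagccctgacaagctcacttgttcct
Traf3 holds 49 CpG in this window and Slc22a23 holds 32, against 4 in Fam19a1 and 3 in Lrrtm4. RefSeq windows within 1000 bases of the annotated start were found for 24 of the 34 genes, and the other 10 are named by their expression alone.

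Of the 34 genes, 33 had all 4 EZH2 GOF tumors above all 3 EZH2 WT tumors. Over all 294 genes, 21.8% were higher without overlap and 70.7% lower, and as the rule used this contrast nothing is read from the count. The ratio of group means was 1.98 at the median and ran from 1.49 for Prpf19 to 3.80 for Creg2, with 17 genes above 2. The 33 higher genes shared with the EZH2 LOF table had a median ratio of 2.22. On the log2(normalized count + 1) scale the median difference was 0.97 for the 34 genes and 1.15 for those 33. By limma (two-sided, Benjamini-Hochberg over the 16173 genes that the authors tested), 0 of the 34 genes and 0% of all listed genes were higher at an adjusted p under 0.05, and 4.08% of listed genes were lower. At an unadjusted p under 0.05 all 34 were higher, among 67 listed genes (22.8%) that passed as higher. The authors had called every listed gene on these same tumors, so nothing is read from this count either. The lowest adjusted p of the 34 was 0.0932, for Tmem132b. Just outside the rule on the lower side stood Rcor3, with a ratio of 0.636, and Iffo2, with 0.564, so no listed gene lies between Rcor3 and Prpf19. The samples were bulk tumors, so more cells of a type and more RNA per cell cannot be told apart for any of these genes.

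**Figure D1:**
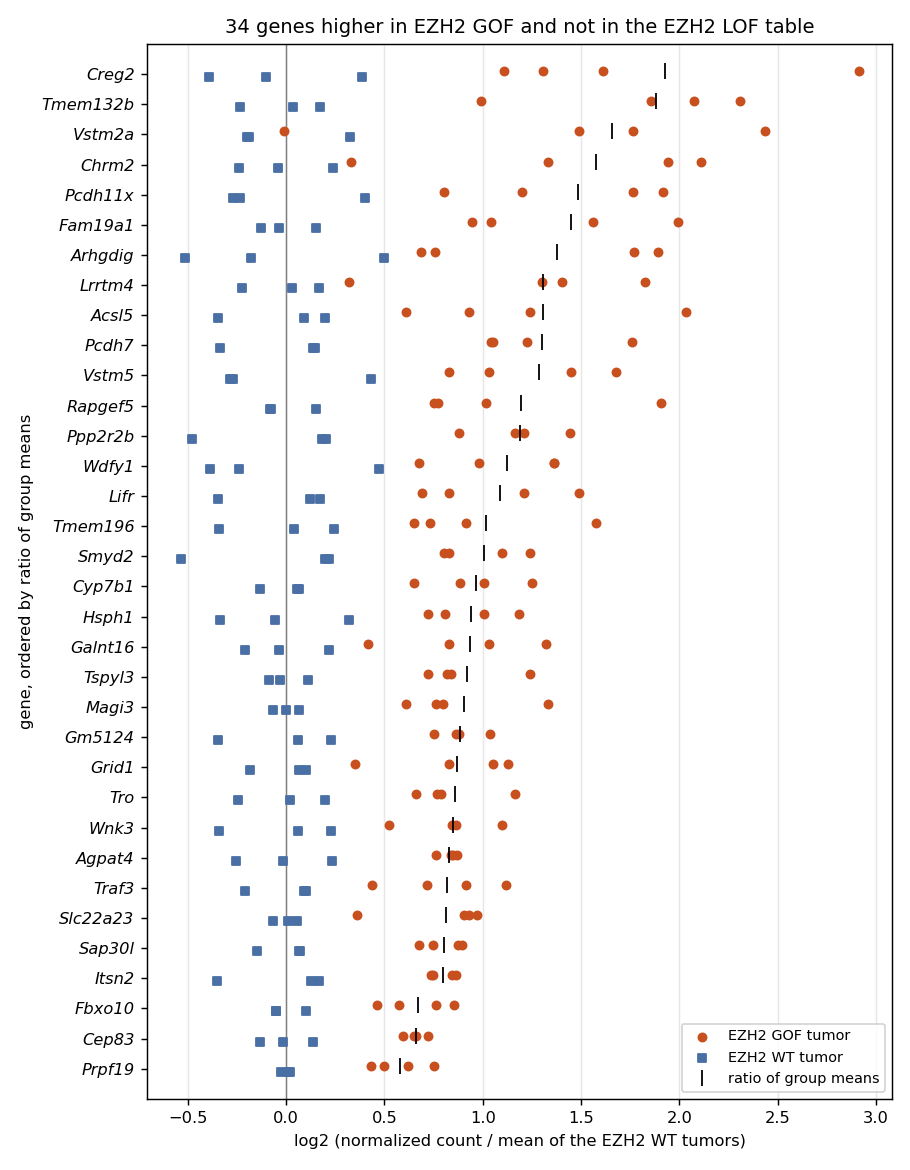
Each row is 1 of the 34 genes, ordered by ratio of group means, and each point is 1 tumor, as log2 of its normalized count over the mean of the EZH2 WT tumors (EZH2 GOF orange circles, EZH2 WT blue squares, vertical ticks for the ratio of means). In 33 rows the orange points all lie right of the blue ones, and Vstm2a is the row in which they overlap.

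Of 5 genes for synapse organizers and secreted proteins, all had a ratio above 2.4. Creg2 encodes a secreted glycoprotein of the brain (chr1:39618406-39651474, minus strand). It had 5103, 2069.5, 1677 and 1461 normalized counts in EZH2 GOF replicates 1 to 4, against 886, 517 and 633 in EZH2 WT replicates 1 to 3, a ratio of 3.80. EZH2 GOF replicate 1 stood far above the other 3, which themselves stayed above every EZH2 WT tumor, and without replicate 1 the ratio was 2.56. Annotated antisense transcripts cover 15.1% of its exon bases. Vstm2a, a secreted protein with an immunoglobulin domain (chr11:16257724-16427310, plus strand), had 3226, 1677, 2026 and 592 normalized counts in EZH2 GOF replicates 1 to 4, against 747, 520.3 and 524 in EZH2 WT replicates 1 to 3, a ratio of 3.15. Its groups overlap, because EZH2 GOF replicate 4 lay among the EZH2 WT values while the other 3 EZH2 GOF tumors lay above them.

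Fam19a1, also called Tafa1, encodes a small chemokine-like secreted protein of the brain (chr6:96113154-96657198, plus strand). It had 881, 652, 455 and 425 normalized counts in EZH2 GOF replicates 1 to 4, against 245, 216 and 203 in EZH2 WT replicates 1 to 3. Every EZH2 GOF value lay above every EZH2 WT value, with replicates 1 and 2 the higher ones. The family has 5 genes, and 2 of them are in the table, both higher. The other one, Fam19a2, is also in the EZH2 LOF table and had 1580.3, 1423, 1188 and 1432 in EZH2 GOF, against 576, 820.3 and 523 in EZH2 WT, a ratio of 2.20 beside 2.73 for Fam19a1.

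Lrrtm4 encodes a postsynaptic leucine-rich repeat protein that binds presynaptic partners (chr6:80018877-80810143, plus strand), and its promoter is the CpG-poor one printed last above. It had 959, 1030.1, 486 and 1381 normalized counts in EZH2 GOF replicates 1 to 4, against 437, 398 and 333 in EZH2 WT replicates 1 to 3, a ratio of 2.48. Replicate 3 was the lowest EZH2 GOF tumor and came close to the highest EZH2 WT tumor, while replicate 4 was the highest. Of the 4 LRRTM genes it is the only one listed, and 25.1% of its exon bases lie under the antisense gene Gm4409. Vstm5, an immunoglobulin-domain membrane protein of neurons, was the lowest of the 34 in level per kb of exon, with 193 ± 51.4 in EZH2 GOF against 79.0 ± 23.96 in EZH2 WT (normalized counts, SD, n = 4 and 3) and a ratio of 2.44. In EZH2 WT replicate 1 this gene rests on 10 reads.

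Among transmitter receptors, transporters and their regulators, Chrm2 had the largest ratio. It encodes the muscarinic M2 receptor, which couples acetylcholine to inhibitory G proteins (chr6:36388084-36528414, plus strand). It had 1286, 841, 1442 and 420.3 normalized counts in EZH2 GOF replicates 1 to 4, against 395, 325 and 283 in EZH2 WT replicates 1 to 3, a ratio of 2.98. Replicate 4, the lowest EZH2 GOF tumor, was barely above EZH2 WT replicate 1, and replicate 4 was also the low tumor for Vstm2a. None of the other 4 muscarinic receptor genes is listed. Grid1 encodes the delta-1 glutamate receptor, which binds cerebellins at synapses. It is the only one of 18 ionotropic glutamate receptor genes in the table and averaged 1973 ± 439 in EZH2 GOF against 1080.0 ± 114 in EZH2 WT (SD, n = 4 and 3), a ratio of 1.83. The kinase gene Wnk3, which acts on cation-chloride cotransporters, averaged 1874 ± 299 in EZH2 GOF against 1042 ± 203 in EZH2 WT (ratio 1.80). Slc22a23, an orphan solute carrier with the CpG-rich promoter printed above, averaged 2411 ± 436 in EZH2 GOF against 1375 ± 57.7 in EZH2 WT (ratio 1.75).

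Of 6 genes for adhesion and cell surface proteins, Tmem132b had the largest ratio and also the highest level per kb of exon of all 34 in EZH2 GOF. It encodes a single-pass membrane protein of the nervous system (chr5:125531774-125792583, plus strand), 1 of 5 TMEM132 genes and the only one listed. Tmem132b had 6922, 5966, 3268 and 8140.1 normalized counts in EZH2 GOF replicates 1 to 4, against 1398, 1689 and 1853 in EZH2 WT replicates 1 to 3, a ratio of 3.69. The lowest EZH2 GOF tumor, replicate 3, was still 1.76 times the highest EZH2 WT tumor. On the scale of mean normalized counts per kb of exon, Tmem132b stood at 737 in EZH2 GOF and 199.9 in EZH2 WT. Vstm5 stood at 96.8 in EZH2 GOF and 39.7 in EZH2 WT on this scale, so the EZH2 GOF levels of the 34 genes covered a 7.62-fold range.

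Protocadherins are cadherin-like proteins by which neurons recognise and adhere to each other. Of 12 non-clustered protocadherin genes, 2 are in the table, and both belong to the 34. Pcdh7 (chr5:57717967-58133230, plus strand) had 6481, 3960.5, 4473 and 3938 normalized counts in EZH2 GOF replicates 1 to 4, against 1515, 2106 and 2117 in EZH2 WT replicates 1 to 3. Its lowest EZH2 GOF tumor was 1.86 times its highest EZH2 WT tumor, the widest gap among the 34, and the antisense gene 4932441J04Rik covers 21.1% of its exon bases. Pcdh11x (chrX:120290259-120910619, plus strand) had 2066, 3399, 1569 and 3056 normalized counts in EZH2 GOF replicates 1 to 4, against 747, 1191 and 765 in EZH2 WT replicates 1 to 3. Its high tumors were EZH2 GOF replicates 2 and 4, where Pcdh7 was high in replicate 1, so the order of the EZH2 GOF tumors differed between the 2 protocadherins. Their ratios were 2.46 for Pcdh7 and 2.80 for Pcdh11x.

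The remaining surface genes had smaller ratios. Tmem196, a membrane protein, averaged 839.7 ± 270.0 in EZH2 GOF against 415 ± 82.5 in EZH2 WT (SD, n = 4 and 3), with a ratio of 2.02. Magi3, a PDZ scaffold of cell junctions, averaged 1464 ± 344 in EZH2 GOF against 783 ± 36.3 in EZH2 WT (ratio 1.87). Tro, which encodes trophinin, a cell adhesion protein of the MAGE family, averaged 4284 ± 690.4 in EZH2 GOF against 2366 ± 357 in EZH2 WT (ratio 1.81).

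Lifr and Traf3 represent cytokine and TNF receptor signalling. Lifr encodes the leukemia inhibitory factor receptor, which pairs with gp130 and signals through STAT3 (chr15:7090614-7197489, plus strand). It had 3367, 5851, 4830.2 and 3707 normalized counts in EZH2 GOF replicates 1 to 4, against 1643, 2267 and 2350.0 in EZH2 WT replicates 1 to 3, a ratio of 2.13. Replicate 2 was the highest EZH2 GOF tumor and the groups did not overlap. Of 14 listed gp130 receptor and ligand genes, Lifr was higher and the ligand gene Clcf1 lower, and the other 12 are not in the table. Clcf1 had 15.5, 4.68, 23.6 and 8.47 in EZH2 GOF, against 395, 77.7 and 28.2 in EZH2 WT, so most of its EZH2 WT mean came from replicate 1, and EZH2 GOF replicate 3 lay close to EZH2 WT replicate 3.

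Traf3 encodes an adaptor that restrains noncanonical NF-kB signalling (chr12:111166370-111267153, plus strand). It had 2073, 2378, 1704 and 2734 normalized counts in EZH2 GOF replicates 1 to 4, against 1088, 1352 and 1341 in EZH2 WT replicates 1 to 3, a ratio of 1.76, with replicate 4 highest. Of 7 TRAF genes, Traf3 was higher and Traf1 lower. Traf1 had 16.1, 33.4, 32.2 and 13.2 in EZH2 GOF, against 459, 67.6 and 105 in EZH2 WT, a ratio of 0.113, again with the highest value in EZH2 WT replicate 1.

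Regulators of small GTPases and phosphorylation made up a further group of 4. Arhgdig (chr17:26199183-26207786, minus strand) had 894, 388, 821 and 408 normalized counts in EZH2 GOF replicates 1 to 4, against 341, 214 and 169 in EZH2 WT replicates 1 to 3, a ratio of 2.60. EZH2 GOF replicates 1 and 3 were high and replicates 2 and 4 low, and the EZH2 WT tumors were the most variable of any of the 34 genes (CV 37.0%). Rapgef5, an exchange factor that activates Rap proteins (chr12:117516479-117759737, plus strand), had 4935, 2666, 2216 and 2248 normalized counts in EZH2 GOF replicates 1 to 4, against 1462, 1243 and 1247 in EZH2 WT replicates 1 to 3. Replicate 1 was 1.85 times the next EZH2 GOF tumor, and the other 3 lay close together above EZH2 WT. Without replicate 1 the ratio was 1.80, beside 2.29 with it.

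Ppp2r2b encodes a brain-enriched B subunit of protein phosphatase 2A (chr18:42637432-43059471, minus strand). It had 2713, 2635, 2162 and 3195 normalized counts in EZH2 GOF replicates 1 to 4, against 843, 1331 and 1350.1 in EZH2 WT replicates 1 to 3, a ratio of 2.28 with a narrow spread among EZH2 GOF tumors, and is the only one of 13 PP2A B subunit genes listed. Itsn2, an endocytic scaffold that activates Cdc42, averaged 2276 ± 102 in EZH2 GOF against 1308 ± 246 in EZH2 WT (SD, n = 4 and 3). Its ratio was 1.74 and its CV among EZH2 GOF tumors 4.49%, and antisense genes cover 13.9% of its exon bases.

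Enzymes of lipid, sterol and glycan metabolism numbered 4. Acsl5 encodes a long-chain acyl-CoA synthetase (chr19:55251938-55297720, plus strand). It had 2541, 1468, 1182 and 947 normalized counts in EZH2 GOF replicates 1 to 4, against 662, 712 and 488 in EZH2 WT replicates 1 to 3, a ratio of 2.47. Replicate 1 was 1.73 times the next EZH2 GOF tumor. Cyp7b1, the oxysterol hydroxylase that turns side-chain oxysterols toward bile acids (chr3:18071950-18243338, minus strand), had 447, 528, 409.7 and 349 normalized counts in EZH2 GOF replicates 1 to 4, against 203, 231 and 233 in EZH2 WT replicates 1 to 3, a ratio of 1.95. Its groups were each narrow, with CVs of 17.2% in EZH2 GOF and 7.59% in EZH2 WT, and did not overlap. Galnt16, an enzyme that starts mucin-type O-glycans, averaged 2723 ± 695 in EZH2 GOF against 1424 ± 214 in EZH2 WT (SD, n = 4 and 3), a ratio of 1.91. Agpat4, an acyltransferase of phospholipid synthesis, averaged 998 ± 31.2 in EZH2 GOF against 561 ± 95.1 in EZH2 WT (ratio 1.78). Agpat4 had the smallest CV of the 34 genes among EZH2 GOF tumors, 3.13%.

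Genes of chromatin and RNA had ratios of at most 2.01. Smyd2 encodes a lysine methyltransferase of histone and other proteins (chr1:189880492-189922363, minus strand). It had 1208, 1185, 1453 and 1606 normalized counts in EZH2 GOF replicates 1 to 4, against 469, 790.2 and 779.9 in EZH2 WT replicates 1 to 3, a ratio of 2.01, and the antisense gene Gm37422 covers 30.0% of its exon bases. Sap30l encodes a subunit of the Sin3A histone deacetylase complex (chr11:57801637-57810217, plus strand). It had 476, 453, 520.1 and 528 normalized counts in EZH2 GOF replicates 1 to 4, against 256, 297 and 298 in EZH2 WT replicates 1 to 3, a ratio of 1.74, and its EZH2 GOF tumors lay within a narrow band well above EZH2 WT. Tspyl3 belongs to a family related to nucleosome assembly proteins (chr2:153222370-153225441, minus strand). It had 403, 281, 305 and 300.3 normalized counts in EZH2 GOF replicates 1 to 4, against 160.1, 167 and 184 in EZH2 WT replicates 1 to 3, a ratio of 1.89, and 11.8% of its 50-base words occur elsewhere in the annotated exons.

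Prpf19, a ubiquitin ligase of the spliceosome (chr19:10895231-10909559, plus strand), had the smallest ratio of the 34. It had 2779.8, 2659, 3024 and 3314 normalized counts in EZH2 GOF replicates 1 to 4, against 1985, 1932 and 1994 in EZH2 WT replicates 1 to 3, a ratio of 1.49. The EZH2 WT tumors agreed within a CV of 1.70%, and all 4 EZH2 GOF tumors were higher. Gm5124 is annotated as a transcribed processed pseudogene on chromosome X. It averaged 426 ± 35.1 in EZH2 GOF against 231 ± 45.1 in EZH2 WT (SD, n = 4 and 3), but the antisense gene Gm26593 covers 71.8% of its exon bases, and whether reads were counted by strand is not stated. Unless they were counted by strand, reads of the shared bases cannot be assigned to Gm5124 alone. The ratio of 1.85 for Gm5124 is uncertain for this reason.

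The last 4 genes act in protein quality control, endosomes and the centriole. Hsph1, a nucleotide exchange factor for Hsp70 chaperones, averaged 4775 ± 693 in EZH2 GOF against 2489 ± 576 in EZH2 WT (SD, n = 4 and 3), a ratio of 1.92. It is the only one of 14 heat shock response genes in the table. Fbxo10, a substrate receptor of SCF ubiquitin ligases, averaged 809 ± 98.5 in EZH2 GOF against 508 ± 31.4 in EZH2 WT (ratio 1.59). Wdfy1, a FYVE-domain protein of early endosomes, averaged 1426 ± 314 in EZH2 GOF against 655 ± 223 in EZH2 WT (ratio 2.18). Cep83, a protein of the distal appendages that anchor centrioles for cilium assembly (chr10:94688654-94790853, plus strand), had 791, 752, 723 and 758 normalized counts in EZH2 GOF replicates 1 to 4, against 437, 474 and 526 in EZH2 WT replicates 1 to 3. Its ratio of 1.58 was the next to smallest, and its EZH2 GOF tumors varied by a CV of 3.68%.

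The 34 genes did not share 1 order of the EZH2 GOF tumors. Replicate 1 was the highest tumor for 15 genes, replicate 4 for 8, replicate 2 for 7 and replicate 3 for 4. Replicate 3 was the lowest for 13 genes, replicate 4 for 10, replicate 2 for 8 and replicate 1 for 3. Replicate 3, the tumor with reads of the mutant base, still lay above every EZH2 WT tumor for all 34 genes, as did replicates 1 and 2. Against the EZH2 WT mean, the median over the 34 genes was 2.19 in replicate 1, 1.98 in replicate 2, 1.84 in replicate 3 and 1.78 in replicate 4. Among the 33 higher genes shared with the EZH2 LOF table, replicate 3 was lowest for 21. Whether the 34 differ from those 33 in this was not tested.

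**Figure D2:**
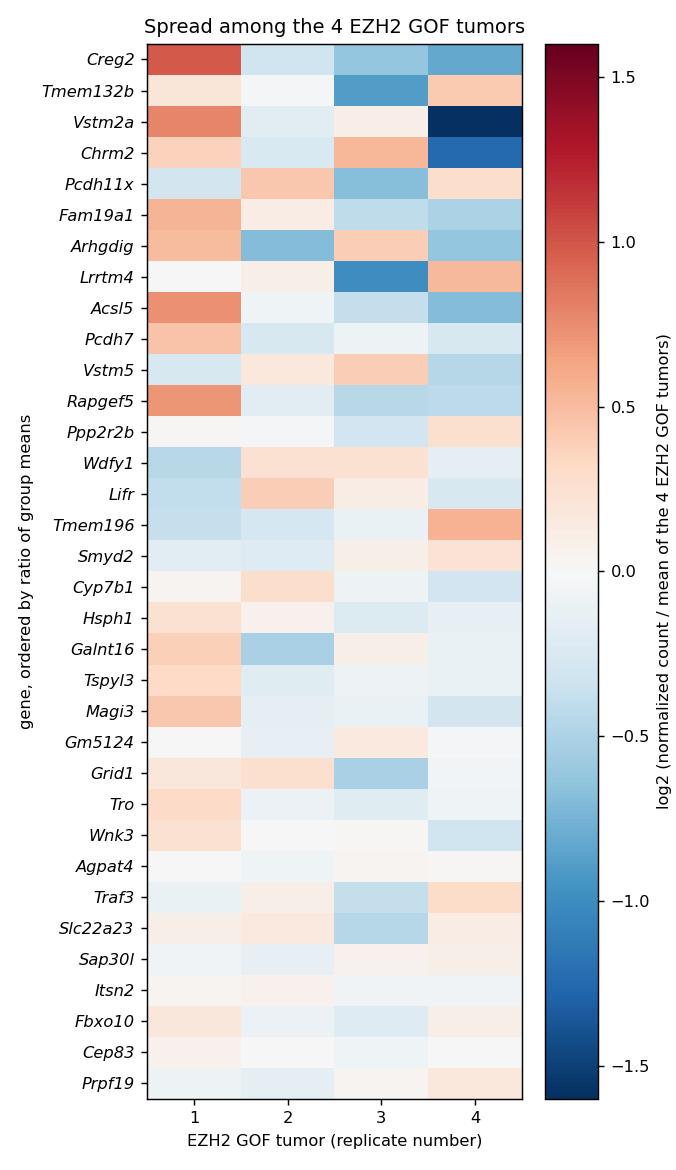
Colour gives log2 of the normalized count over the mean of the 4 EZH2 GOF tumors, for 34 genes (rows, largest ratio on top) and 4 tumors (columns). Creg2, Acsl5 and Rapgef5 are red in replicate 1, Vstm2a and Chrm2 are dark blue in replicate 4, and Tmem132b and Lrrtm4 are blue in replicate 3, while the lower rows are pale.

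The median CV of the 34 genes was 22.1% among EZH2 GOF tumors and 16.9% among EZH2 WT tumors, and 23 of the 34 varied more in EZH2 GOF. Genes with larger ratios also varied more among EZH2 GOF tumors. The CV was over 40% for 6 genes (Creg2, Vstm2a, Chrm2, Arhgdig, Acsl5 and Rapgef5), all with ratios above 2.2, and under 10% for 6 (Agpat4, Cep83, Itsn2, Sap30l, Gm5124 and Prpf19), all with ratios under 1.9. Across the 34 genes, which share the same 7 libraries, Spearman's correlation between CV and log2 ratio was 0.86 and Pearson's r 0.85. The CV and the ratio both contain the EZH2 GOF values. Every gene had also passed the authors' test on these tumors, which a small ratio passes more readily with a small spread. Nothing is therefore read from this correlation. Across the same 34 genes Spearman's correlation between mean level and log2 ratio was 0.033. For the 33 shared higher genes, CV and log2 ratio correlated at 0.64 by Spearman and 0.66 by Pearson. The ratio stayed above 1.4 for each of the 34 genes whichever tumor was left out. The genes had been called and chosen on these same 7 tumors, so this too is a description. The strongest drop was that of Creg2 without EZH2 GOF replicate 1.

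The libraries differed in depth. The size factors were 0.932 to 2.12 in EZH2 GOF, against 0.0937, 1.49 and 1.56 in EZH2 WT, and 1 read in EZH2 WT replicate 1 is worth 10.7 normalized counts. That library holds a median of 70 reads over the 34 genes, and 13 of them rest on under 50 reads there. The 34 genes together hold 55006 to 137783 reads in each EZH2 GOF library, against 2733, 48337 and 51420 in the EZH2 WT libraries. Without EZH2 WT replicate 1 the median log2 difference was 0.92 and all 34 genes had groups that did not overlap.

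Those marker genes of cerebellar neurons that are in the table had lower means in the EZH2 GOF tumors, as did 227 of all 294 genes. Of 20 granule cell genes, 10 are in the table and all 10 are lower. Of 11 Purkinje cell genes, 5 are in the table and all 5 are lower. Groups overlapped for Cbln1, with 817 in EZH2 GOF replicate 1 against 736 in EZH2 WT replicate 1. They also overlapped for Car8, with 817 in EZH2 GOF replicate 4 against 619 in EZH2 WT replicate 1. The granule cell genes summed to 439 to 1508 normalized counts in EZH2 GOF, against 4151 to 34411 in EZH2 WT. The Purkinje cell genes summed to 523 to 1003 in EZH2 GOF, against 1312 to 30971 in EZH2 WT. None of these markers is among the 34 genes, and their part in the higher levels of the 34 was not tested. Within the EZH2 WT group the granule cell sum differed 8.29-fold between the highest and the lowest tumor and the Purkinje cell sum 23.6-fold. Both sums were lowest in replicate 1, the library with a size factor of 0.0937. Among the granule cell genes, Uncx was instead highest there, at 576 against 115 and 261 in EZH2 WT replicates 2 and 3. Pax6 was lowest in EZH2 WT replicate 2, at 982 against 1259 in replicate 1. The sum of the 34 genes differed 1.13-fold, and their CVs among EZH2 WT tumors ran from 1.70% to 37.0%. A sum can hide single genes, and its link to the markers was not tested. Single genes from 3 further lists were lower too. Of a list of 10 muscle genes, 2 are in the table. These 2, Mybpc3 and Ryr1, summed to 16.1 to 98.1 in EZH2 GOF, against 785 to 2443 in EZH2 WT. Lum, of 10 mural and meningeal genes, stood at 9.88 to 87.9 in EZH2 GOF, against 167 to 380.3 in EZH2 WT, and Dnah11, of 6 ependymal genes, at 36.2 to 81.5 in EZH2 GOF, against 753 to 1160.2 in EZH2 WT. So few genes of a list do not show a cell type, and their part in the higher levels of the 34 was not tested either. No gene of the lists for oligodendrocyte precursors, astrocytes, other neurons, microglia, endothelium or proliferation is in the table. Of the mature oligodendrocyte list only Omg is, at 3004 ± 598 in EZH2 GOF against 1333 ± 363 in EZH2 WT (SD, n = 4 and 3), so the labelled glioma could not be checked against its defining markers here.

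**Figure D3:**
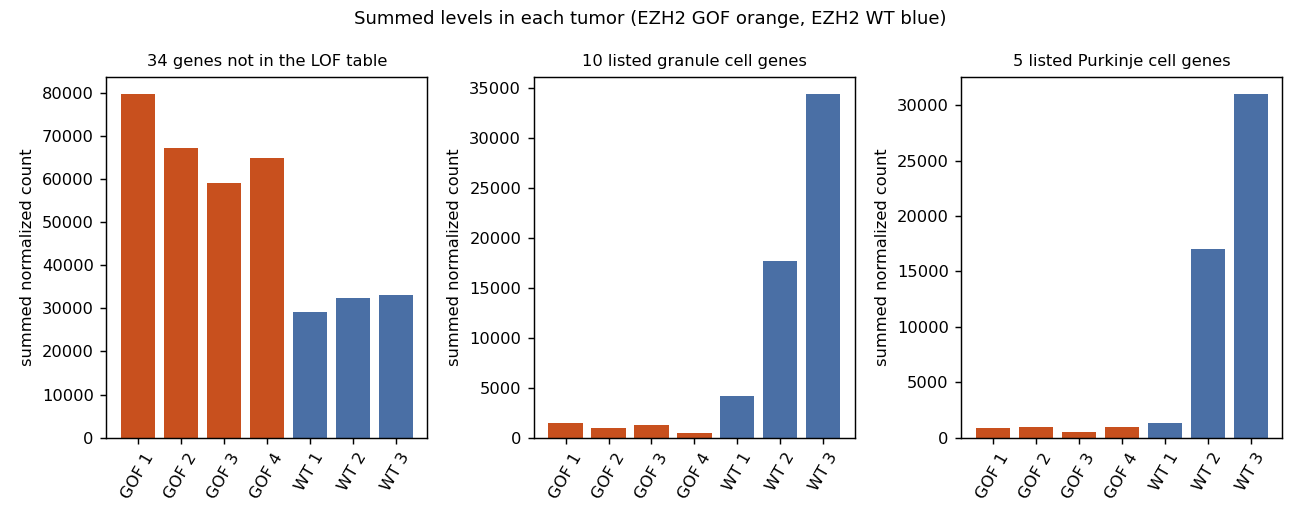
Bars give the summed normalized count in each of 4 EZH2 GOF tumors (orange) and 3 EZH2 WT tumors (blue), for the 34 genes, for 10 granule cell genes and for 5 Purkinje cell genes. The 34 genes sum to 58990 to 79606 in EZH2 GOF and to 29162 to 32979 in EZH2 WT. The marker sums are low in EZH2 GOF and uneven among the EZH2 WT tumors.

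Most of the 34 genes were long. By GENCODE M21, which matched all 34 identifiers, the 33 protein-coding ones had a median span of 106.9 kb from start to end, and 20 of them (60.6%) spanned over 100 kb. Over all 22028 protein-coding genes the median span was 17.3 kb, and 11.3% spanned over 100 kb. That background holds every annotated gene and not only the 16173 that the authors tested, whose spans were not measured. The longest were Lrrtm4 with 791 kb, Grid1 with 763 kb, Pcdh11x with 620.4 kb, Fam19a1 with 544 kb, Ppp2r2b with 422 kb and Pcdh7 with 415 kb. Their length lies mostly in introns, since the median exon length was 6.15 kb, against 3.49 kb over all protein-coding genes. Long span was shared with the 33 higher genes of the EZH2 LOF table, which had a median of 119 kb, while the 216 lower protein-coding genes had 32.1 kb. In the coordinates of the deposited table, the median span of the 34 genes was 92.6 kb. Within the 34, Spearman's correlation between log2 span and log2 ratio was 0.31 over 33 genes.

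**Figure D4:**
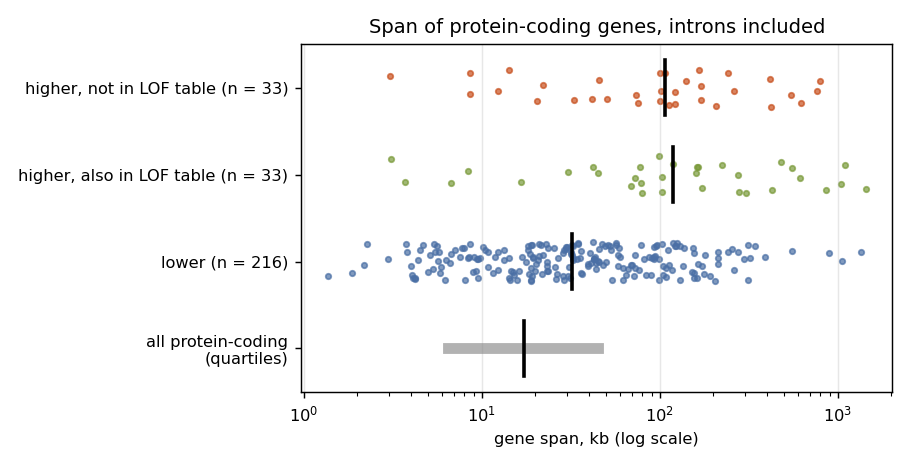
Points are protein-coding genes of the EZH2 GOF table placed by span in kb on a log axis, in 3 sets (higher and not in the EZH2 LOF table, higher and also in it, lower), with black lines at the medians, and the grey bar gives the quartiles over all 22028 protein-coding genes. The medians are 106.9, 119 and 32.1 kb for the 3 sets and 17.3 kb for all.

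The 34 genes lie on 17 chromosomes, with 5 on chromosome 12 (Itsn2, Galnt16, Traf3, Rapgef5 and Tmem196) and 4 on chromosome X (Pcdh11x, Gm5124, Tro and Wnk3). Of the protein-coding ones, 3 of 33 (9.09%) are X-linked, against 4.30% of all protein-coding genes. None of 6 sex-linked genes, among them Xist, is in the table.

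Among the 34 genes, those with CpG-poor promoters had the larger ratios at the median. Of the 24 promoters found, 14 (58.3%) had a GC content of at least 50% and a CpG ratio, observed over expected, of at least 0.6, against 31.4% of the 27025 genes of the promoter table. The same share, 58.3%, was found for 24 of the 33 higher genes shared with the EZH2 LOF table, and 37.9% for 153 lower genes. For listed genes the start nearest the annotated one was taken, and for the whole promoter table the most upstream start of each gene. The share of 31.4% is thus not measured in quite the same way. Some windows, among them those of Tmem132b, Pcdh7, Creg2 and Vstm2a, hold annotated exon of their own gene. The start used for Tmem132b lies 644 bases inside the annotated gene. The 10 CpG-poor genes had a median ratio of 2.36 and include Tmem132b, Fam19a1, Lrrtm4, Pcdh7, Vstm5 and Rapgef5. They also include Tspyl3, Wnk3 and Agpat4, with ratios of 1.89, 1.80 and 1.78. The 14 CpG-rich genes had a median ratio of 1.82. They include Traf3, Slc22a23, Cep83 and Prpf19, but also Creg2, Vstm2a and Chrm2, which stand among the 4 largest ratios of the 34. Across the 24 genes, Spearman's correlation between CpG number and log2 ratio was -0.45 and Pearson's r -0.38. Among the shared higher genes the medians stood in the same order but closer, at 2.35 for 10 CpG-poor and 2.21 for 14 CpG-rich genes. Across these 24, Spearman's correlation was -0.00087 and Pearson's r -0.12. These are descriptions over genes measured in the same 7 libraries, and the difference between the sets was not tested.

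**Figure D5:**
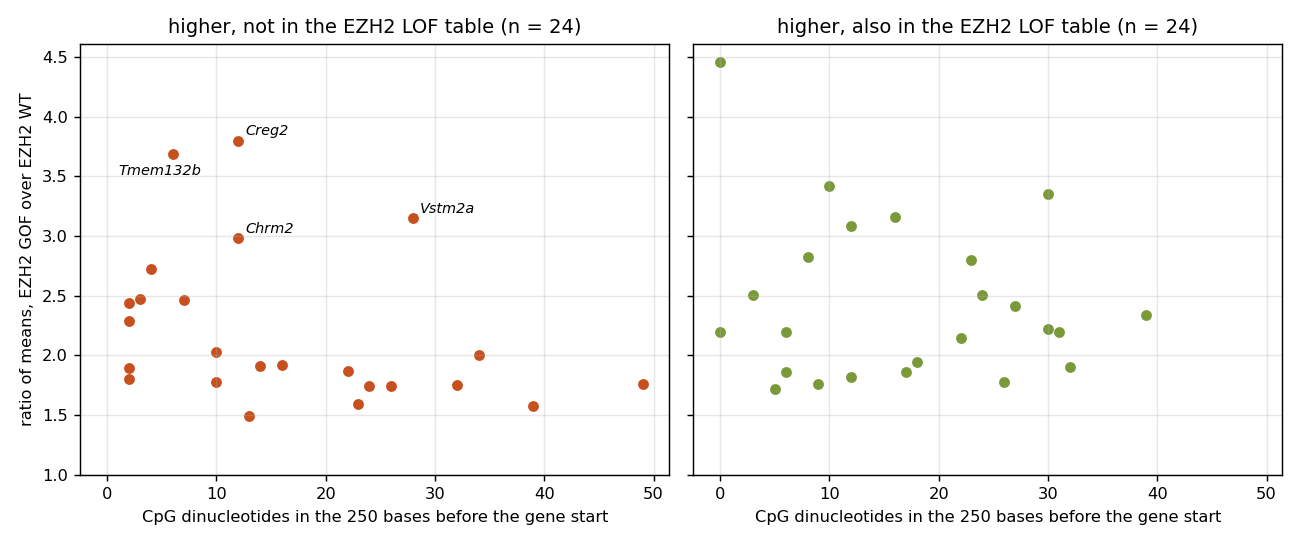
Each point is a gene, with the number of CpG dinucleotides in the 250 bases before its start on the x axis and its ratio of means (EZH2 GOF over EZH2 WT) on the y axis. On the left, for 24 of the 34 genes, points with over 12 CpG lie at or under a ratio of about 2.01 apart from Vstm2a, and on the right, for the higher genes also in the EZH2 LOF table, no such slope is seen.

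Short motifs were counted on both strands in the same windows, with the whole promoter table again taken at the most upstream start. The GC box GGGCGG, which contains a CpG, occurs in 12 of 24 (50.0%), beside 18 of 24 shared higher genes, 43.1% of the lower genes and 33.0% of all genes of the promoter table. The motif is in the Traf3 and Slc22a23 windows printed above and not in those of Fam19a1 and Lrrtm4. The E-box CAGCTG occurs in 5 (20.8%, beside 12.7% of all genes), among them Lrrtm4, Creg2 and Rapgef5, and TATAAA in 3 (12.5%, beside 12.98%), namely Lrrtm4, Vstm5 and Wnk3.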

How the data were processed

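Per the labels and the study's methods, FastQC and Trim Galore preceded alignment to mm10 by STAR, counting by HTSeq and a test by DESeq2, with versions not given in the sources used here. For each experiment, genes past an FDR of 0.05 were deposited. The deposited signal values are counts per gene over the library's size factor. The deposited log2 fold changes, standard errors, Wald scores and p-values are the authors' own comparison and were not used, except that the raw and adjusted p-values gave the number of genes tested (16173). In each of the 7 libraries, values were multiples of 1 smallest step (100% within 0.001 reads), and its inverse is the size factor. The 2 experiments were normalized apart, and values of the EZH2 LOF table were not used.

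The members were found from the means of each group and from identifiers in both tables. They and the gene lists were chosen with earlier results of these data known. Groups were compared with limma 3.58.1 (R 4.3.3, trend, two-sided) on log2(normalized count + 1) over all 294 genes, with Benjamini-Hochberg adjustment over 16173. The log2 scale understates changes of low genes. The same fit was also run on simulated data, with the outcome not given here. Each gene is named with its ratio. Values in every tumor are given for the 10 largest ratios, the 10 widest gaps between groups, the 2 smallest ratios, genes whose groups overlap and genes with a listed relative. Replicates are separate samples by their labels, with nothing said of the animals, so p-values measure the spread between samples. Spans, exon overlap and shared 50-base words come from GENCODE M21, and promoters from RefSeq (GRCm38.p6, matched by gene ID, Python 3.11.15). Alternatives were pseudocounts of 0.5 and 5, a mean normalized count of at least 100, a replicate block, rescaling, and leaving out each library.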

Additional observations from a re-analysis of the deposited data

Results flagged for a closer look

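Of the 34 genes, 3 had an EZH2 GOF tumor far from the other 3, with a gap to the nearest tumor, as a share of the range, above Dixon's critical value. Chance alone marks about 1 in 20 groups in this way, and groups of 3 tumors were not examined. Creg2 stood at 5103 normalized counts in EZH2 GOF replicate 1, beside 1461 to 2069.5 in the other EZH2 GOF tumors. Rapgef5 stood at 4935 in replicate 1, beside 2216 to 2666. Slc22a23 was low in replicate 3, with 1762 beside 2570.0 to 2695, and this tumor was still above the EZH2 WT tumors.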

How the results depend on the processing

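The number of genes under the rule was 34 with group medians in place of means, with matching by symbol and without any 1 library. The genes had been called and chosen on these same 7 tumors, so little change was possible and these counts are a description. The count of genes whose groups do not overlap was 33 to 34 without 1 library, 33 at a mean normalized count of at least 100, and 34 after rescaling. Their median log2 difference was 0.91 to 1.04 without 1 library and 0.97 at pseudocounts of 0.5 and 5. Rescaling each library to a median log2 ratio of 0 over the listed genes gave 2.99, since most listed genes are lower in EZH2 GOF and the scaling moves them up. With 7 genes left out that share over 10% of exon bases or of 50-base words with other genes, an alternative chosen after seeing the data, 26 of 27 did not overlap and the median was 0.95. The median exon length, as another measure of size than span, was 6.12 kb.

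By limma, 0 of the 34 genes passed in each of these fits except the replicate block, with 7, and the rescaled fit, with 34, where all 67 higher genes of the table passed and 9 lower ones. Over all 294 genes 12 passed, against 3 at a pseudocount of 0.5, 15 at a pseudocount of 5, 0 at a mean normalized count of at least 100, 64 with the replicate block and 0 to 23 without 1 library (23 without EZH2 WT replicate 1, and 0 without any other). Deviations of same-numbered tumors correlated at -0.068, -0.18 and 0.0064, and none of these 3 EZH2 GOF tumors correlated best with its own number. The numbers were therefore not taken as pairs, though so few correlations cannot decide it. The block is thus no support for the 7 genes. The log2 difference was positive for all 34 genes in each fit, which their selection on direction made likely, so nothing is read from this. Under both pseudocounts, the block and without 1 library, all 340 values of single genes moved by less than 1 SD, while single genes were not followed under rescaling, where the median moved by more. A count model on recovered reads was not run. Depth limits EZH2 WT replicate 1 most, where 1 of the 34 genes rests on 10 reads.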
